A study of Mus musculus with 3 samples.

Results

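Toll-like receptors are the surface and endosomal receptors by which innate immune cells sense bacterial products, and endotoxin, the lipopolysaccharide of Gram-negative bacteria, is sensed by one of them together with helper proteins. The 8 genes described here were taken by their symbols from the 31053 genes of each count table, and all 8 were present in all 3 tables. They are the receptors Tlr2, Tlr4 and Tlr6, the endotoxin-binding partners Cd14 and Ly96, the adaptors Myd88 and Ticam1, and the inhibitory kinase-like protein Irak3. Single-cell RNA libraries were made with the 10x Genomics 3′ kit, version 2, from C57BL/6 mouse bone marrow enriched for cells bearing Kit, a receptor of stem and progenitor cells. There was 1 library in each of 3 groups: steady-state mice (unchallenged), mice given Escherichia coli on 1 occasion, with the label 24 h (challenged once), and mice given it on 2 occasions, with the label 48 h (rechallenged). The series asks, by its title, how infection changes haematopoietic stem and progenitor cells (HSPCs) and the neutrophils they give rise to. The source label of every library reads bone marrow neutrophil, the series' own design text speaks of 2 samples and of a different treatment, and neither the moment from which the hours count nor any pooling of mice is stated, so the labels of treatment were followed. Number of challenges and labelled hours differ together and cannot be told apart.

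In the best known form of the pathway, CD14 hands endotoxin to the protein MD-2, encoded by Ly96, which sits on TLR4, and the loaded receptor signals through MyD88 at the cell surface and through TRIF, encoded by Ticam1, from endosomes. TLR2 pairs with TLR6 or TLR1 to bind bacterial lipoproteins and signals through MyD88. IRAK-M, encoded by Irak3, restrains the signal below MyD88, and mouse haematopoietic stem and progenitor cells are known to carry TLR4, MD-2 and TLR2.

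The tables held 119646078, 135079828 and 95522747 unique molecular identifiers (UMIs, each a counted transcript) in the libraries with 0, 1 and 2 challenges, and 8796, 8356 and 8286 cells were kept. The members summed to 5397, 7203 and 5450 UMIs in kept cells, which was 0.00488%, 0.00568% and 0.00606% of all UMIs, so every value below rests on few counts. Joint clustering gave 28 clusters, each named, where it could be, with the ending "like" since only transcripts were measured. The HSPC-like class held 723, 1238 and 752 cells, and 13, 11 and 11 of its 13 markers were at least 2-fold over the other cells. The neutrophil progenitor-like class held 641, 1342 and 1859 cells with 8 of 8 markers at that fold in each library, the monocyte-like class 516, 632 and 1012 cells with 7, 7 and 6 of 9 markers, and the mature neutrophil-like class 393, 438 and 684 cells with 9, 10 and 10 of 10 markers. Libraries shared 125, 113 or 103 barcodes in pairs and none in all 3. Neutrophil RNA was present in classes that should lack it: Camp, a granule gene of immature neutrophils, stood at 1383, 140.2 and 561 UMIs per 1000000 UMIs of the class (CPM) in erythroid-like cells and at 1706, 190.0 and 252 CPM in HSPC-like cells, so it was highest in the unchallenged library in both.

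Levels are given in CPM, over UMIs summed across the cells of a class, with exact Poisson 95% intervals, and folds carry exact conditional 95% intervals. All intervals cover counting error only, because with 1 library per group there is no measure of the spread between mice and no test was made. A member was counted as changed when its log2 ratio after adding 10 CPM to both levels passed 1.5-fold in either direction and the pair of libraries held at least 100 of its UMIs. With 10 CPM added, a member at only a few CPM cannot be counted as lower even if it is lost entirely. For such members the lack of a call says nothing about a fall. Levels are compared within a gene and never between genes.

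The genes lie on 8 chromosomes of the mouse build GRCm38, with positions from GENCODE release M21: Tlr2 at chr3:83836272-83841767 on the minus strand, Tlr4 at chr4:66827584-66930284 on the plus strand, Tlr6 at chr5:64952031-64960097 on the minus strand, Ly96 at chr1:16688051-16709611 on the plus strand, Myd88 at chr9:119335934-119341411 on the minus strand, Ticam1 at chr17:56269319-56276786 on the minus strand and Irak3 at chr10:120141648-120202130 on the minus strand. The position of Cd14 is given with its values. All are protein coding. Myd88 overlaps the annotated span of Slc22a14 on its own strand, and no library held a UMI of Slc22a14.

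RefSeq gave promoter windows for 5 of the 8 genes, Tlr2, Tlr6, Myd88, Ticam1 and Irak3, and gave 7 windows in all. The 3 windows below, the 250 bases before an annotated start in RefSeq GRCm38.p6, are those of Myd88 and Tlr2, shown because both were called in mature neutrophil-like cells, and 1 of the 2 windows of Tlr6, shown because it holds motif matches. Capitals mark matches, on either strand, to the paired repeat of interferon response elements, spelled GAAA, any 2 bases, GAAA.
Myd88 promoter, chr9:119340019-119340268, minus strand: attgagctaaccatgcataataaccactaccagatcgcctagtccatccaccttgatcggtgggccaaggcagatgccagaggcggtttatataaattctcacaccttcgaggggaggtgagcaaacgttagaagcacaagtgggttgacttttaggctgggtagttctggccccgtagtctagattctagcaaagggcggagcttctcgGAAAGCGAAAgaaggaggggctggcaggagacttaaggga
Tlr6 promoter, chr5:64959167-64959416, minus strand: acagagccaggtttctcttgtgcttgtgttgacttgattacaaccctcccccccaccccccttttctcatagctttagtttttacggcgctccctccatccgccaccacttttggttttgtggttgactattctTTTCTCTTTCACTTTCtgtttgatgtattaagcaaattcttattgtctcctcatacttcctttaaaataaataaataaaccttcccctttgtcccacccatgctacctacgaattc
Tlr2 promoter, chr3:83841609-83841858, minus strand: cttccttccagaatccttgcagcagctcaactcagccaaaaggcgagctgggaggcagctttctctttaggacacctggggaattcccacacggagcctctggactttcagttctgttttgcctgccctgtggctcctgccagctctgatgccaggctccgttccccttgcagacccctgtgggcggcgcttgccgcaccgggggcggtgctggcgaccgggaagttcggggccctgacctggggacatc
The Myd88 window held 1 match and the printed Tlr6 window 2 overlapping matches on the opposite strand, while the other Tlr6 window and both Irak3 windows held no match to any motif searched. Of all 32851 such mouse windows 2.98% held one. None of these 3 windows held the 1 spelling searched for NF-kB, which is GGG, any 2 bases, TTTCC and was found in 1.41% of windows. None held GAGGAA, the core of the PU.1 motif found in 23.3%. Other spellings of NF-kB sites were not searched, so these windows are not shown to lack such a site. The Ticam1 window held 1 GAGGAA. These matches describe letters only.

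**Figure D1:**
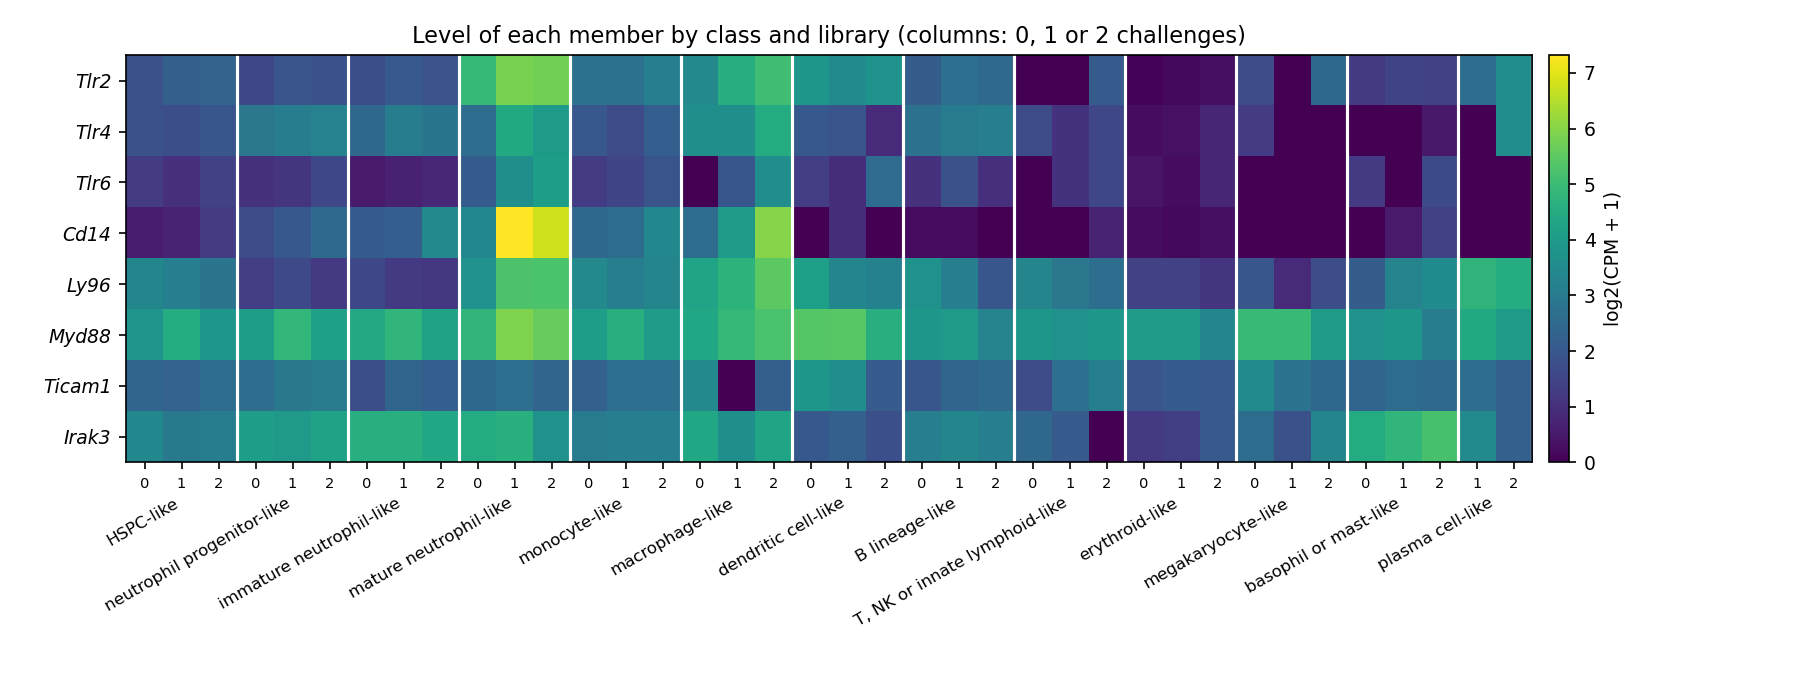
Level of each of the 8 members (rows, brighter for a higher log2 of CPM plus 1) by cell class and library. Columns 0, 1 and 2 are the number of challenges, and a class with fewer than 50 cells in a library has no column for that library. Cd14 and Tlr2 are brightest in mature neutrophil-like cells after challenge, while Myd88 is present in every class shown.

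Across the stem, progenitor and monocyte-like classes no member passed the 1.5-fold rule in any comparison. In mature neutrophil-like cells 3 of 8 members had enough UMIs against unchallenged cells, and those 3 were higher after challenge. A member with few UMIs without challenge reaches 100 over a pair only if it is high after challenge. The count of 3 is therefore not a result about the 8 members. Irak3, at 38, 31 and 26 UMIs, and Ticam1, at 8, 7 and 9 UMIs, fell short of 100 over each pair. In HSPC-like cells 4 members had enough UMIs for the challenged once against unchallenged comparison and 0 were called, where 2.07% of all measured genes were called. Against the same unchallenged library, 0 of 3 measured members were called in rechallenged HSPC-like cells, with 9.5% of genes called. Between the rechallenged and the challenged once library the count was 0 of 5, with 11.6% of genes called. There 932 of the 1097 called genes were lower, whereas Tlr2 and Ticam1 could not be called lower by the rule. They stood at 3.65 and 3.94 CPM in challenged once cells. Myd88 came nearest, with a log2 ratio of 0.49 in challenged once over unchallenged HSPC-like cells and of -0.46 in rechallenged over challenged once cells.

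In neutrophil progenitor-like cells 0 of 6 measured members were called in challenged once over unchallenged cells, with 4.03% of genes called. The same count was 0 of 5 in rechallenged over unchallenged cells, with 6.84% of genes called, and 0 of 8 in rechallenged over challenged once cells, with 10.7% of genes called. In the last comparison 902 of the 1043 called genes were lower, whereas Tlr2, Tlr6, Cd14 and Ly96 could not be called lower by the rule. They stood at 2.81, 1.16, 3.05 and 2.06 CPM in challenged once cells. In monocyte-like cells the count of called members was 0 of 6, 0 of 6 and 0 of 7 in the same 3 comparisons, beside 1.34%, 7.97% and 8.64% of genes called. Myd88 was again the nearest in neutrophil progenitor-like cells, at a log2 ratio of 0.53 in challenged once over unchallenged cells.

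In mature neutrophil-like cells Tlr2, Cd14 and Myd88 were the members with enough UMIs, and all 3 rose in challenged once over unchallenged cells, where 19.4% of genes were called. All 3 were also higher in rechallenged over unchallenged cells, where 30.5% of genes were called. Cd14 had 17 UMIs in the unchallenged library. It reached 100 over either pair only through the challenged library, at 206 and 229 UMIs. In rechallenged over challenged once cells 0 of 4 measured members were called, with 17.7% of genes called. The class was made of different cells in the 3 libraries: cluster 14 (led by Mmp8, Retnlg and Mmp9) held 390, 158 and 249 of its cells and cluster 15 (led by Wfdc17, Il1b and Cxcl2) held 3, 280 and 435. Within cluster 14, the only one with at least 50 cells of every library, no member reached 100 UMIs over a pair, so the values of that cluster are given below beside those of the class. Comparisons at the level of clusters were chosen after their values were seen.

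Tlr2 binds bacterial lipoproteins. In mature neutrophil-like cells its level was 29.0 CPM (21.6 to 38.1) in the unchallenged library, 57.0 CPM (44.8 to 71.6) in the challenged once library and 52.8 CPM (43.5 to 63.6) in the rechallenged library. Both challenged libraries stood above the unchallenged one without overlap of intervals and did not stand apart from each other. The fold was 1.96 (1.36 to 2.86) in challenged once over unchallenged cells and 1.82 (1.30 to 2.59) in rechallenged over unchallenged cells. Within cluster 14 Tlr2 stood at 29.1, 47.5 and 29.6 CPM in the order of 0, 1 and 2 challenges, so the rechallenged cells of that cluster were level with the unchallenged ones, at a fold of 1.02 (0.645 to 1.59). Cluster 15, almost absent without challenge, had 66.0 CPM in the challenged once library and 84.7 CPM in the rechallenged library.

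In HSPC-like cells Tlr2 was low, at 2.53, 3.65 and 4.01 CPM from 21, 77 and 33 UMIs, and the 3 intervals overlapped. Erythroid-like cells, which gave the lowest Tlr2 level of any class of at least 50 cells with UMIs in all 3 libraries, had 0.0598, 0.125 and 0.239 CPM. Tlr2 thus stood higher in HSPC-like than in erythroid-like cells in each library. B lineage-like cells had 3.47, 5.41 and 4.81 CPM of Tlr2, above HSPC-like cells in each library with overlapping intervals. They also held more Camp than HSPC-like cells, at 2527, 340 and 419 CPM. The part of free RNA in these Tlr2 levels was not tested. Among 5 classes set side by side, the order in the unchallenged library was mature neutrophil-like at 29.0, dendritic cell-like at 13.7 (6.25 to 25.9), monocyte-like at 5.76 (4.45 to 7.33), HSPC-like at 2.53 (1.56 to 3.86) and neutrophil progenitor-like at 2.01 CPM (1.30 to 2.97). The first and second of these overlapped at their interval ends, as did dendritic cell-like and monocyte-like cells, and the last pair could not be separated.

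Tlr4 is the endotoxin receptor itself. Its level in neutrophil progenitor-like cells was 6.52 CPM (5.18 to 8.10) in the unchallenged, 7.35 CPM (6.49 to 8.28) in the challenged once and 8.44 CPM (7.41 to 9.57) in the rechallenged library. The 3 intervals overlapped, and the fold was 1.13 (0.876 to 1.46) in challenged once and 1.29 (1.0 to 1.69) in rechallenged cells over unchallenged cells. Neutrophil progenitor-like cells held 20.5% of all Tlr4 UMIs of the unchallenged library, 49.3% of those of the challenged once library and 49.8% of those of the rechallenged library, while the class held 11.2%, 28.6% and 31.9% of all UMIs. The change in the source of Tlr4 transcripts thus went with the size of the class.

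HSPC-like cells had less Tlr4 than neutrophil progenitor-like cells in every library, at 2.53 CPM (1.56 to 3.86), 2.37 CPM (1.76 to 3.13) and 2.91 CPM (1.87 to 4.34), and these levels did not differ beyond counting error. Erythroid-like cells had 0.179, 0.249 and 0.718 CPM. Among HSPC-like cells the share with a Tlr4 UMI was 2.90%, 3.96% and 3.19% at median depths of 9942, 16166.5 and 10181.5 UMIs, against 0.527%, 0.638% and 0.778% of the deeper erythroid-like cells (medians 31313, 26240 and 16878 UMIs). After each cell was thinned to 2000 UMIs the HSPC-like shares were 0.975%, 0.570% and 0.403%, and no erythroid-like cell had a Tlr4 UMI. Basophil or mast-like cells gave 0, 0 and 1 Tlr4 UMIs.

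In mature neutrophil-like cells Tlr4 rested on 9, 27 and 31 UMIs, at 5.12 CPM (2.34 to 9.72), 20.8 CPM (13.7 to 30.3) and 14.8 CPM (10.0 to 20.9). The levels of both challenged libraries lay above the unchallenged interval, at 4.06-fold (1.85 to 9.82) in challenged once and 2.88-fold (1.34 to 6.88) in rechallenged over unchallenged cells, but too few UMIs were counted for the 1.5-fold rule. In cluster 14 alone they were 5.13, 11.1 and 7.4 CPM with overlapping intervals. Immature neutrophil-like cells had 4.59 CPM (3.96 to 5.29), 7.36 CPM (5.98 to 8.97) and 6.23 CPM (5.05 to 7.60), a fold of 1.60 (1.24 to 2.06) in challenged once over unchallenged cells. The log2 ratio there was 0.25 and so below the 1.5-fold rule. Its clusters, whose shares of the class differed between libraries, did not move alike: the challenged once over unchallenged fold was 2.24 (1.46 to 3.39) in cluster 0, 1.48 (0.859 to 2.45) in cluster 5 and 0.869 (0.552 to 1.35) in cluster 10. B lineage-like cells carried Tlr4 as well, at 5.58, 6.93 and 7.70 CPM.

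Tlr6, the lipoprotein receptor that pairs with TLR2, gave 12, 21 and 14 UMIs in HSPC-like cells, which is 1.44, 0.996 and 1.70 CPM with overlapping intervals. In neutrophil progenitor-like cells it stood at 1.05 CPM (0.557 to 1.79), 1.16 CPM (0.833 to 1.56) and 2.02 CPM (1.54 to 2.61), and the rechallenged cells were 1.75-fold (1.16 to 2.67) over the challenged once cells, with a log2 ratio of 0.11 after the added CPM. Mature neutrophil-like cells had 3.41 CPM (1.25 to 7.43), 11.6 CPM (6.47 to 19.1) and 15.7 CPM (10.8 to 22.1) from 6, 15 and 33 UMIs. The rechallenged level there did not overlap the unchallenged one, and in cluster 14 the 3 levels were 3.42, 7.91 and 10.7 CPM. Erythroid-like cells had 0.299, 0.187 and 0.718 CPM, which overlapped the HSPC-like interval in the rechallenged library.

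Cd14, the carrier that hands endotoxin to the receptor and a gene at chr18:36725067-36726798 of GRCm38 on the minus strand, had the widest fold of the 3 members called in mature neutrophil-like cells. It rose to 159 CPM (138 to 182) in the challenged once library and 109 CPM (95.3 to 124) in the rechallenged library, against 9.67 CPM (5.63 to 15.5) in the unchallenged library, from 206, 229 and 17 UMIs. The fold was 16.4 (10.0 to 28.7) in challenged once over unchallenged cells and 11.3 (6.89 to 19.7) in rechallenged over unchallenged cells. The rechallenged cells were lower than the challenged once cells, at 0.687-fold (0.567 to 0.833), which did not pass 1.5-fold. Mature neutrophil-like cells held 6.80%, 43.2% and 31.6% of the Cd14 UMIs of the libraries with 0, 1 and 2 challenges from 1.59%, 1.02% and 2.34% of all UMIs.

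Most of this Cd14 lay in cluster 15, which had 285 CPM (246 to 329) in the challenged once and 218 CPM (188 to 251) in the rechallenged library. Its 3 unchallenged cells held no Cd14 UMI and are too few for a level. In cluster 14 Cd14 was 9.69 CPM (5.65 to 15.5), 25.3 CPM (14.5 to 41.1) and 29.6 CPM (20.7 to 41.0), a fold of 2.61 (1.23 to 5.50) in challenged once and 3.05 (1.67 to 5.80) in rechallenged cells over unchallenged cells. Cd14 was thus higher after challenge within the shared cluster also, by a smaller fold than over the class. The share of mature neutrophil-like cells with a Cd14 UMI was 3.82%, 29.9% and 25.1% at median depths of 4180, 2570 and 2526 UMIs, and 2.13%, 19.6% and 18.3% after thinning, against 0.183%, 0% and 0% of thinned erythroid-like cells.

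Monocyte-like, immature neutrophil-like and neutrophil progenitor-like cells showed another order of Cd14, with the rechallenged library highest. Monocyte-like cells had 4.45 CPM (3.31 to 5.85), 4.96 CPM (3.98 to 6.11) and 9.61 CPM (8.21 to 11.2) of Cd14, a fold of 2.16 (1.57 to 3.02) in rechallenged over unchallenged and 1.94 (1.49 to 2.54) in rechallenged over challenged once cells. Immature neutrophil-like cells had 3.41 CPM (2.87 to 4.02), 3.53 CPM (2.59 to 4.70) and 9.89 CPM (8.39 to 11.6), at 2.90-fold (2.29 to 3.67) in rechallenged over unchallenged cells. The immature neutrophil-like class was made of different cells in the 3 libraries: cluster 0 held 1889, 583 and 351, cluster 5 held 1312, 302 and 36, cluster 10 held 408, 235 and 443 and cluster 13 held 56, 51 and 691 of its cells. The rechallenged library was highest in clusters 0, 10 and 13, at 4.84, 6.35 and 14.7 CPM in cluster 0, at 2.22, 1.53 and 7.39 CPM in cluster 10 and at 5.51, 1.89 and 10.3 CPM in cluster 13, the last from 2, 1 and 72 UMIs, while cluster 5 gave 2 UMIs from its 36 rechallenged cells. In cluster 0 the log2 ratio of 0.73 in rechallenged over unchallenged cells passed 1.5-fold. Neutrophil progenitor-like cells had 2.17 CPM (1.43 to 3.16), 3.05 CPM (2.51 to 3.68) and 4.64 CPM (3.88 to 5.50), at 2.13-fold (1.40 to 3.36) in rechallenged over unchallenged cells. In all 3 classes the rechallenged interval lay above that of the other libraries, yet the log2 ratios against unchallenged cells were 0.44, 0.57 and 0.27 after the added 10 CPM and so short of 1.5-fold. Camp in erythroid-like cells stood at 1383, 140.2 and 561 CPM, so it was higher in the rechallenged than in the challenged once library, as Cd14 was in these classes, and highest in the unchallenged library. Camp itself was low in cluster 15, at 624 and 486 CPM in the challenged once and rechallenged libraries, and the part of free RNA in these Cd14 levels was not tested.

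Cd14 was low in HSPC-like cells and rested on few UMIs. It gave 4, 14 and 12 UMIs, at 0.481 CPM (0.131 to 1.23), 0.664 CPM (0.363 to 1.11) and 1.46 CPM (0.753 to 2.54), while erythroid-like cells had 0.179 CPM (0.0370 to 0.524), 0.125 CPM (0.0151 to 0.451) and 0.239 CPM (0.00606 to 1.33). The HSPC-like level was the higher in every library. The intervals of both classes overlapped in each, which does not show that the levels were equal, and no ratio between the classes was taken. In cluster 7, the HSPC-like cluster led by the stem cell genes Hlf, Meis1 and Ly6a, 2 cells in each library had a Cd14 UMI, of 415, 536 and 356 cells. In cluster 6, the other HSPC-like cluster, 2, 12 and 10 cells had one, of 308, 702 and 396 cells.

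**Figure D2:**
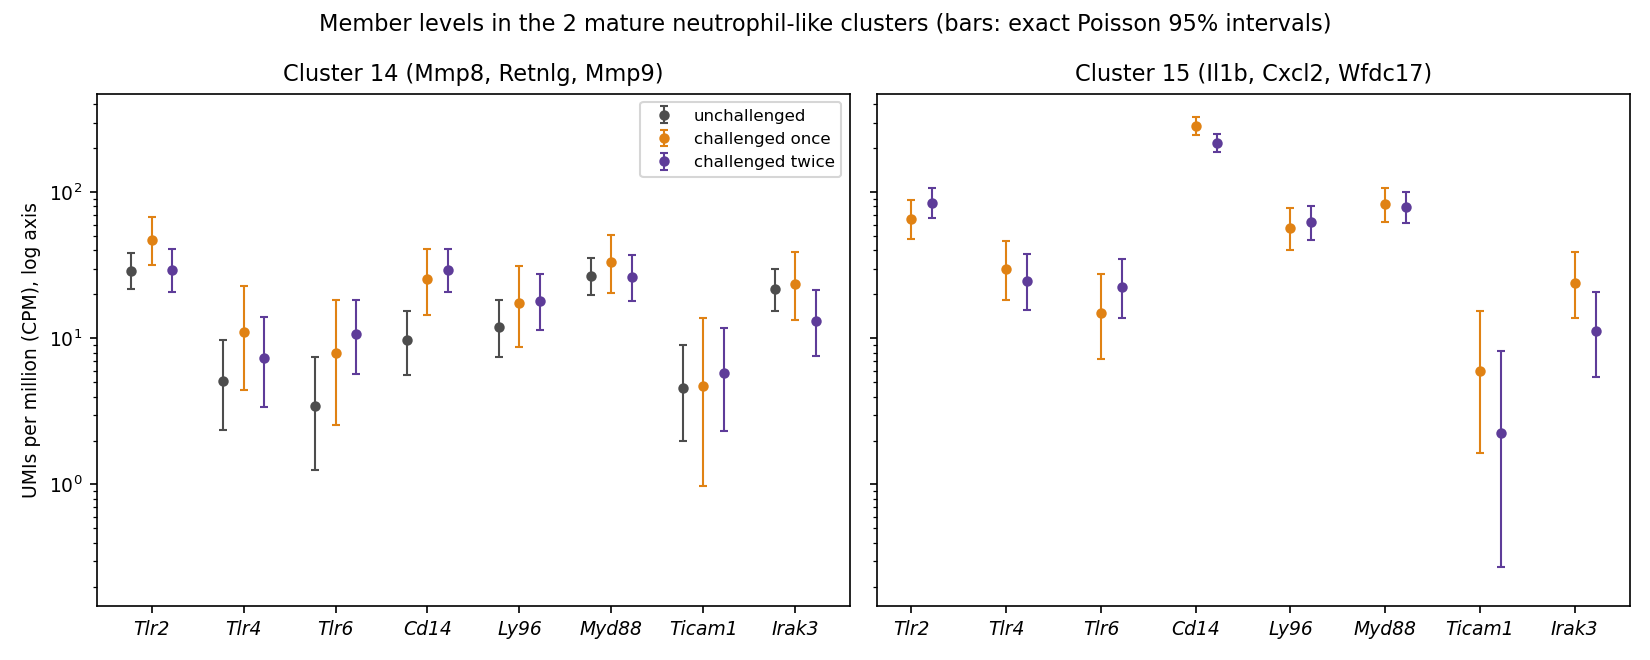
Level of the members (CPM with exact Poisson 95% intervals, log axis) in the mature neutrophil-like clusters 14 and 15 by library, with the unchallenged point of cluster 15 left out because it rests on 3 cells. Cd14 stands at 285 and 218 CPM in cluster 15 of the challenged once and rechallenged libraries and at 9.69, 25.3 and 29.6 CPM in cluster 14 with 0, 1 and 2 challenges.

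Ly96 encodes MD-2, the subunit of the receptor that binds endotoxin. Among the progenitor clusters it was highest in cluster 7, at 15.2 CPM (11.4 to 19.8), 14.4 CPM (11.5 to 17.8) and 8.73 CPM (5.65 to 12.9) in the unchallenged, challenged once and rechallenged libraries. Cluster 6, the HSPC-like cluster led by Cd34, Ifitm1 and Cd27, had 4.84 CPM (3.07 to 7.26), 5.35 CPM (4.25 to 6.65) and 4.65 CPM (3.01 to 6.87). The stem cell-like cluster thus stood above cluster 6 without overlap in the unchallenged and challenged once libraries, while the intervals overlapped in the rechallenged library. Neutrophil progenitor-like cells had only 1.53 CPM (0.921 to 2.39), 2.06 CPM (1.62 to 2.59) and 1.36 CPM (0.967 to 1.86), below cluster 6 in every library and level with erythroid-like cells at 1.67, 1.75 and 1.20 CPM.

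Within cluster 7 Ly96 was lower in the rechallenged library, at 0.605-fold (0.371 to 0.953) of the challenged once cells and 0.575-fold (0.343 to 0.939) of the unchallenged cells, with log2 ratios of -0.38 and -0.43. Over all HSPC-like cells Ly96 was 9.27 CPM (7.31 to 11.6), 7.92 CPM (6.76 to 9.22) and 6.07 CPM (4.51 to 8.0), and the rechallenged cells were at 0.655-fold (0.449 to 0.947) of the unchallenged cells. None of these passed the 1.5-fold rule. The share of cluster 7 cells with a Ly96 UMI was 12%, 15.1% and 6.74%, and 3.89%, 3.58% and 1.41% after thinning, against 0%, 0.321% and 0.413% of thinned erythroid-like cells. Cluster 11, led by Dntt and Flt3, had 10.6, 5.62 and 6.12 CPM of Ly96 and cluster 9, led by Apoe and Gata2, 4.76, 3.75 and 3.30 CPM. The cluster 11 interval overlapped that of cluster 7 in all but the challenged once library. Clusters 9 and 11 were left unnamed.

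Mature neutrophil-like cells had 11.9 CPM (7.39 to 18.3), 37.7 CPM (27.9 to 49.9) and 36.6 CPM (28.9 to 45.8) of Ly96, at 3.16-fold (1.86 to 5.55) in challenged once and 3.07-fold (1.87 to 5.23) in rechallenged over unchallenged cells. These pairs held fewer than 100 Ly96 UMIs. Cluster 14 alone had 12, 17.4 and 18.1 CPM, with overlapping intervals, and cluster 15 had 57.0 and 62.1 CPM in the challenged once and rechallenged libraries. B lineage-like cells gave 12.7 CPM (10.1 to 15.7), 7.78 CPM (5.69 to 10.4) and 2.89 CPM (0.596 to 8.44), the last from 3 UMIs, and monocyte-like cells 9.95, 7.77 and 8.98 CPM with overlapping intervals.

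The parts of the endotoxin receptor were seldom counted in the same stem or progenitor cell. Tlr4 and Ly96 UMIs occurred together in 3 of 723, 8 of 1238 and 4 of 752 HSPC-like cells, and Tlr4, Ly96 and Cd14 together in none of them. In neutrophil progenitor-like cells Tlr4 and Ly96 occurred together in 1, 16 and 3 cells and all 3 genes in none. A UMI of at least 1 of the 8 members was found in 266, 653 and 266 HSPC-like cells. At 1 or no UMI per cell for most members, a cell without a UMI cannot be read as a cell without the transcript.

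**Figure D3:**
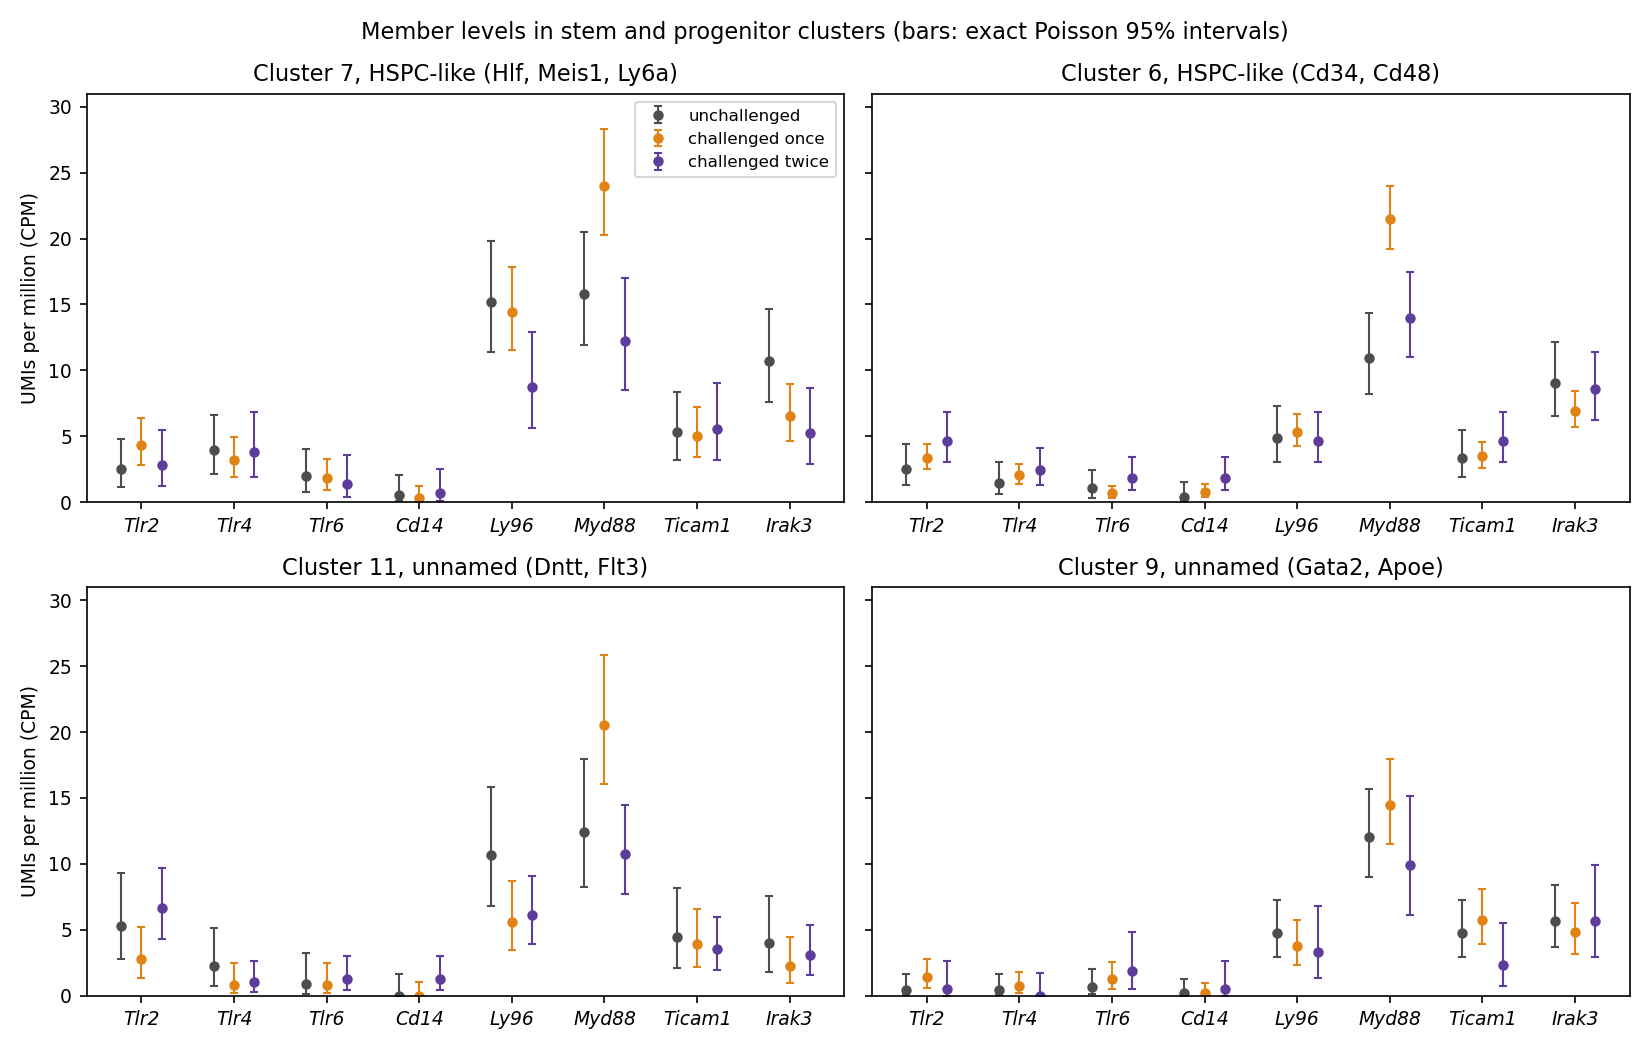
Level of the members (CPM with exact Poisson 95% intervals, linear axis) in progenitor clusters 7, 6, 11 and 9 by library. Ly96 is highest in cluster 7 of the unchallenged and challenged once libraries, at 15.2 and 14.4 CPM, and Myd88 is highest in the challenged once library in each of the 4 clusters.

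Myd88, the adaptor that most Toll-like receptors use, was highest in the challenged once library in HSPC-like, neutrophil progenitor-like, immature neutrophil-like and monocyte-like cells. HSPC-like cells had 13 CPM (10.7 to 15.7), 22.2 CPM (20.2 to 24.3) and 13.4 CPM (11 to 16.1) in the unchallenged, challenged once and rechallenged libraries, from 108, 468 and 110 UMIs. Only the challenged once library stood apart, and the other two overlapped. The fold was 1.71 (1.38 to 2.12) in challenged once over unchallenged cells, 1.03 (0.781 to 1.35) in rechallenged over unchallenged cells and 0.602 (0.484 to 0.742) in rechallenged over challenged once cells. With the added 10 CPM these folds fell short of 1.5-fold, whereas with 1 CPM added the challenged once level passed it against both of the other libraries.

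The challenged once library was highest in both HSPC-like clusters, while the order of the other two differed. Cluster 6 had 10.9 CPM (8.17 to 14.3), 21.5 CPM (19.2 to 23.9) and 14 CPM (11 to 17.5), at 1.96-fold (1.46 to 2.69) in challenged once over unchallenged cells, and its log2 ratio of 0.59 did pass 1.5-fold. Cluster 7 had 15.8 CPM (11.9 to 20.5), 24.0 CPM (20.2 to 28.3) and 12.2 CPM (8.51 to 17.0), and there the rechallenged cells passed 1.5-fold against the challenged once cells, at 0.509-fold (0.341 to 0.741) and a log2 ratio of -0.61. Cluster 11 had 12.4, 20.5 and 10.7 CPM, and cluster 9 had 12, 14.5 and 9.91 CPM with intervals of the unchallenged and challenged once libraries that overlapped. Cells of the challenged once library were deeper in the HSPC-like class, with a median of 16166.5 UMIs against 10181.5 in the rechallenged and 9942 in the unchallenged library. When every cell was given the same weight, an alternative chosen after the values were seen, the mean Myd88 level was 13.9, 22 and 13.2 CPM in the order of 0, 1 and 2 challenges. Among HSPC-like cells the share with a Myd88 UMI was 13.6%, 30.1% and 13.8%, but after thinning it was 2.92%, 3.26% and 3.36% from 21, 40 and 25 cells, against 2.74%, 3.21% and 1.24% of thinned erythroid-like cells, so no order is read from the shares.

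Neutrophil progenitor-like cells had 16.3 CPM (14.1 to 18.7), 28.0 CPM (26.3 to 29.7) and 17.1 CPM (15.6 to 18.7) of Myd88, a fold of 1.72 (1.48 to 2.01) in challenged once over unchallenged cells and of 0.611 (0.547 to 0.681) in rechallenged over challenged once cells. Of their clusters, cluster 4 had 13.1, 28.0 and 16.3 CPM and cluster 2 had 17.8, 27.8 and 17.7 CPM, so the challenged once library was highest in both. Monocyte-like cells had 16.1 CPM (13.9 to 18.6), 23.5 CPM (21.3 to 25.9) and 15.6 CPM (13.8 to 17.6), and immature neutrophil-like cells 20.4 CPM (19.1 to 21.8), 27.0 CPM (24.3 to 29.9) and 17.7 CPM (15.7 to 19.9). In both, the challenged once interval lay above those of the other libraries. Of the immature neutrophil-like clusters, cluster 0 had 23.0, 30.6 and 17.7 CPM and cluster 10 had 21.9, 32.0 and 20.2 CPM, with the challenged once interval above the others, while cluster 5 had 17.3, 18.3 and 14.7 CPM with overlapping intervals, the last from 36 cells.

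In the classes that follow, the unchallenged and challenged once levels lay close together or overlapped. Erythroid-like cells had 15.1 CPM (13.3 to 17.1), 15.6 CPM (13.7 to 17.6) and 9.34 CPM (6.64 to 12.8) of Myd88, at 1.03-fold (0.862 to 1.23) in challenged once over unchallenged cells. Dendritic cell-like cells had 41.0, 41.5 and 23.1 CPM, megakaryocyte-like cells 29.5, 30.2 and 14.9 CPM and B lineage-like cells 13.6, 14.7 and 8.67 CPM. Macrophage-like cells had 19.9, 28.5 and 36.5 CPM from 12, 10 and 10 UMIs, highest in the rechallenged library with overlapping intervals. The rechallenged over challenged once fold lay below 1 in erythroid-like cells at 0.599 (0.416 to 0.842), in megakaryocyte-like cells at 0.494 (0.240 to 0.953) and in dendritic cell-like cells at 0.556 (0.334 to 0.911), near the folds of the HSPC and progenitor classes. The median log2 ratio of all measured genes was -0.09 in that comparison for HSPC-like cells and -0.11 for neutrophil progenitor-like cells. The log2 shift that median-of-ratios scaling takes out was -0.12 and -0.20 for these classes. That scaling therefore raises the ratios and does not lower them further.

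Mature neutrophil-like cells kept a high Myd88 level in both challenged libraries, at 58.5 CPM (46.1 to 73.3) with 1 challenge and 48.5 CPM (39.6 to 58.9) with 2, against 27.3 CPM (20.1 to 36.2) in the unchallenged library. The fold was 2.14 (1.47 to 3.14) in challenged once and 1.78 (1.25 to 2.56) in rechallenged over unchallenged cells. In cluster 14 alone the levels were 26.8, 33.2 and 26.3 CPM with overlapping intervals, and the fold was 1.24 (0.704 to 2.11) in challenged once and 0.982 (0.606 to 1.57) in rechallenged over unchallenged cells. Cluster 15 stood at 82.6 and 79.1 CPM in the challenged once and rechallenged libraries. Without a cell filter, where the class held 3 unchallenged cells, the direction turned, with a fold of 0.360 in challenged once and 0.343 in rechallenged over unchallenged cells.

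Ticam1, which encodes the adaptor TRIF, differed little. HSPC-like cells had 4.21 CPM (2.93 to 5.86), 3.94 CPM (3.14 to 4.88) and 4.98 CPM (3.57 to 6.75), all overlapping. Neutrophil progenitor-like cells had 5.07 CPM (3.90 to 6.49), 6.58 CPM (5.77 to 7.47) and 7.22 CPM (6.27 to 8.27), at 1.42-fold (1.07 to 1.92) in rechallenged over unchallenged cells with a log2 ratio of 0.19. Immature neutrophil-like cells had 2.38, 4.13 and 3.53 CPM, at 1.74-fold (1.23 to 2.44) in challenged once over unchallenged cells with a log2 ratio of 0.19, and at 1.56-fold (0.848 to 2.74), 2.21-fold (1.08 to 4.32) and 1.24-fold (0.663 to 2.32) in its clusters 0, 5 and 10. Mature neutrophil-like cells gave 8, 7 and 9 Ticam1 UMIs, at 4.55, 5.39 and 4.28 CPM, and in cluster 14 alone 8, 3 and 7 UMIs, at 4.56, 4.75 and 5.76 CPM, so Ticam1 showed there no difference that these counts could detect. Dendritic cell-like cells had 13.7 CPM (6.25 to 25.9), 11.1 CPM (5.73 to 19.4) and 3.30 CPM (0.899 to 8.45), from 9, 12 and 4 UMIs.

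Irak3, the inhibitor that acts below MyD88, was found mainly in neutrophil and basophil lineages. The small macrophage-like class also carried it, at 19.9, 11.4 and 18.2 CPM from 12, 4 and 5 UMIs. Basophil or mast-like cells had 21.5 CPM (14.6 to 30.6), 27.4 CPM (20.9 to 35.3) and 35.7 CPM (28.5 to 44.2), at 1.66-fold (1.09 to 2.59) in rechallenged over unchallenged cells with a log2 ratio of 0.54. Immature neutrophil-like cells had 22.9, 23.3 and 20.1 CPM and held 62.7%, 23.0% and 26.2% of all Irak3 UMIs of their libraries, where they held 37.7%, 10.5% and 17.3% of all UMIs. Neutrophil progenitor-like cells had 16.1 CPM (13.9 to 18.5), 14.6 CPM (13.4 to 15.9) and 17.7 CPM (16.2 to 19.4), with the rechallenged cells at 1.22-fold (1.08 to 1.38) of the challenged once cells. The clusters of that class differed: cluster 2 had 15.7, 18.8 and 21.4 CPM and cluster 4 had 17.0, 12.6 and 13.2 CPM.

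In HSPC-like cells Irak3 was 9.75 CPM (7.74 to 12.1), 6.83 CPM (5.76 to 8.04) and 7.41 CPM (5.66 to 9.51), at 0.700-fold (0.530 to 0.931) in challenged once over unchallenged cells with a log2 ratio of -0.23. The direction was opposite to that of Myd88 in the same comparison. In cluster 7 Irak3 was 10.7 CPM (7.57 to 14.7), 6.55 CPM (4.66 to 8.95) and 5.24 CPM (2.93 to 8.64), at 0.490-fold (0.250 to 0.912) in rechallenged over unchallenged cells, from 38, 39 and 15 UMIs. Cluster 6 had 9.04, 6.94 and 8.56 CPM with overlapping intervals. Markers of immature neutrophils, which carry Irak3, were likewise highest in the unchallenged library. Their 9 genes summed to 4226, 476 and 544 CPM in cluster 7 and to 3278, 469 and 540.4 CPM in cluster 6. From the challenged once to the rechallenged library the sum rose in both clusters, while Irak3 fell in cluster 7 and rose in cluster 6. The part of immature neutrophil RNA in the Irak3 levels was not tested.

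Mature neutrophil-like cells had 21.6 CPM (15.3 to 29.7), 23.9 CPM (16.2 to 33.9) and 12.4 CPM (8.08 to 18.1) of Irak3, and the rechallenged cells were at 0.518-fold (0.296 to 0.902) of the challenged once and 0.572-fold (0.334 to 0.968) of the unchallenged cells, with fewer than 100 UMIs in either pair. In cluster 14 alone Irak3 was 21.7 CPM (15.3 to 29.7), 23.7 CPM (13.3 to 39.1) and 13.2 CPM (7.52 to 21.4) from 38, 15 and 16 UMIs, with overlapping intervals, and the rechallenged cells were at 0.554-fold (0.257 to 1.20) of the challenged once and 0.607-fold (0.316 to 1.12) of the unchallenged cells. Monocyte-like cells had 7.33, 7.77 and 8.01 CPM, and dendritic cell-like cells gave 2, 4 and 3 UMIs.

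**Figure D4:**
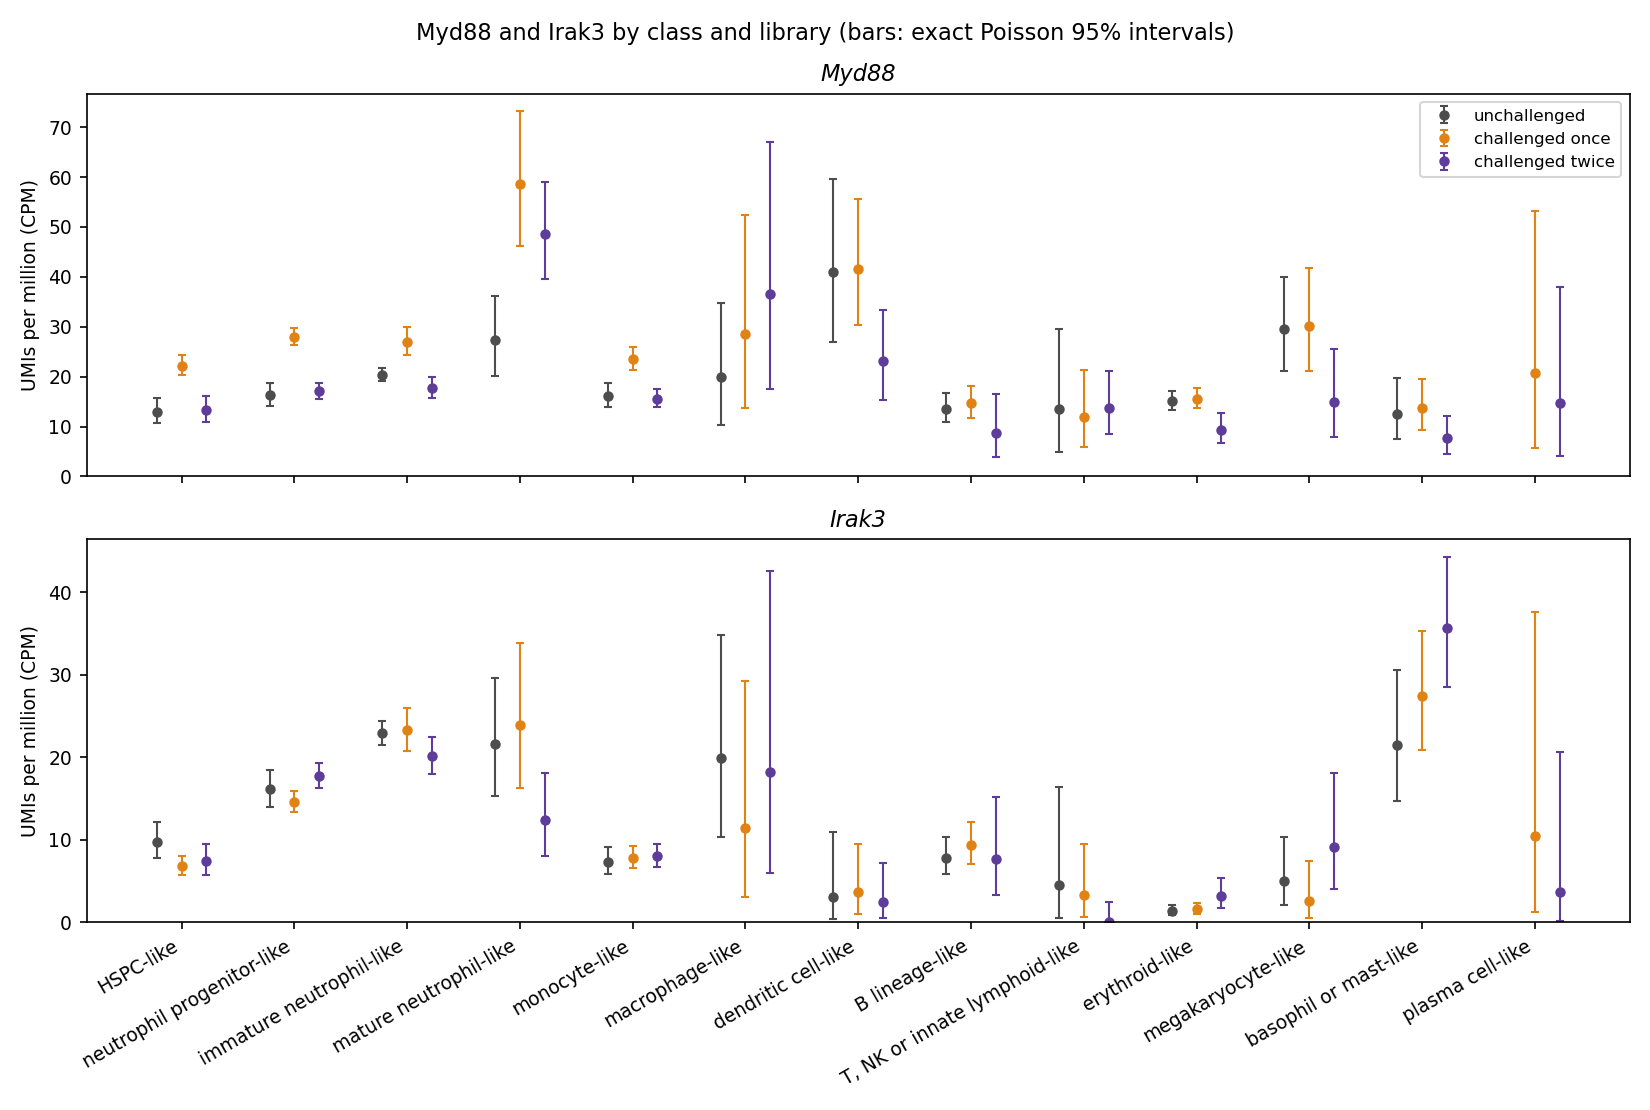
Level of Myd88 and Irak3 (CPM with exact Poisson 95% intervals) by cell class and library. Myd88 is highest in the challenged once library in HSPC-like, neutrophil progenitor-like, immature neutrophil-like and monocyte-like cells, at 22.2, 28.0, 27.0 and 23.5 CPM, while Irak3 does not share this order.

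**Figure D5:**
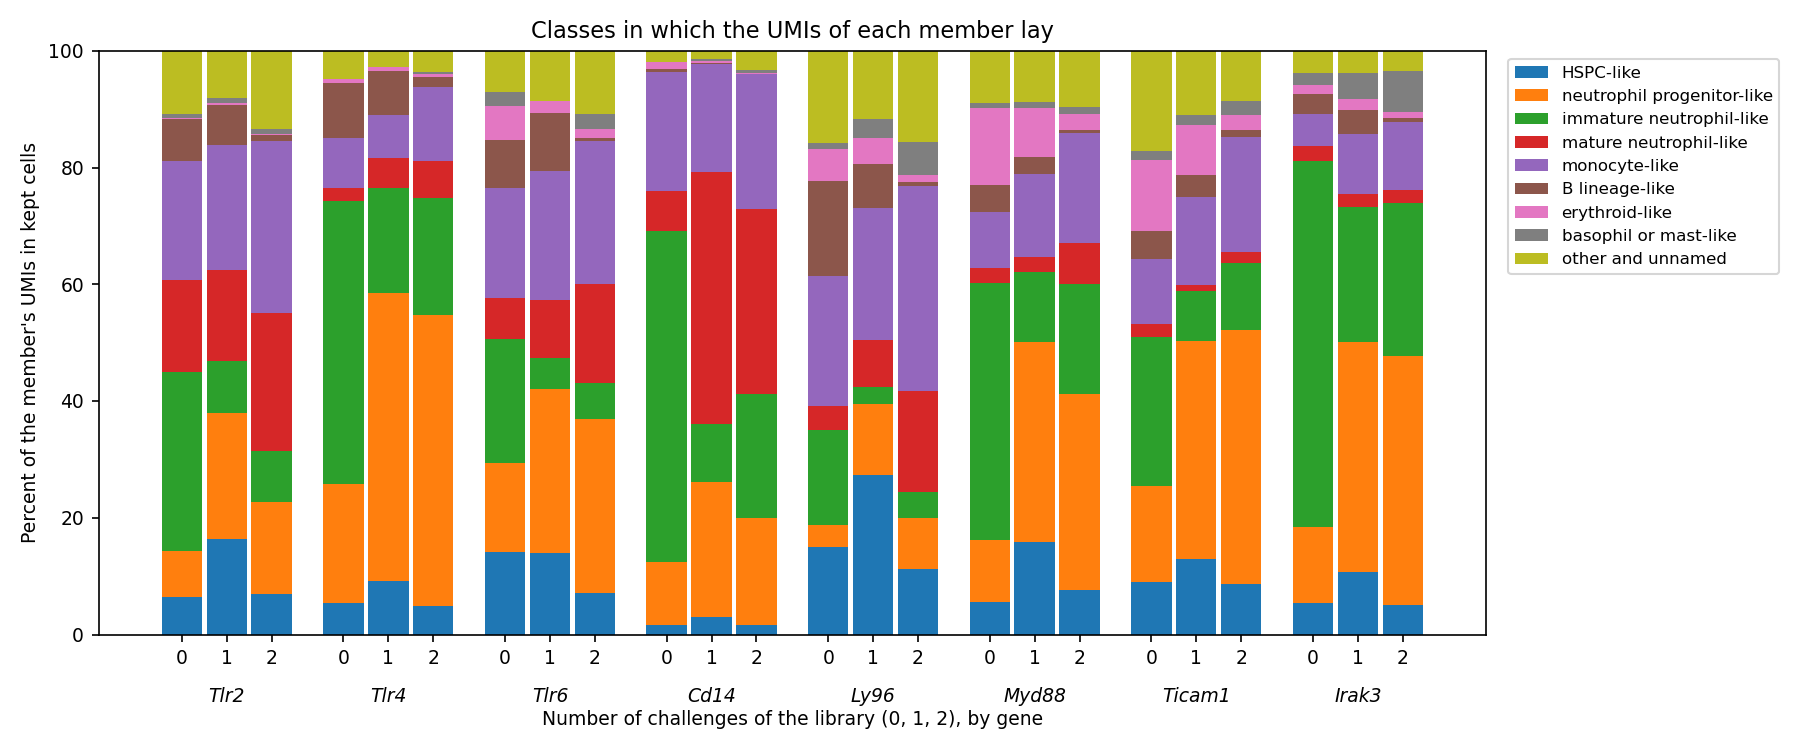
Percent of the UMIs of each member that came from each cell class, by library. Mature neutrophil-like cells gave 6.80% of Cd14 UMIs in the unchallenged, 43.2% in the challenged once and 31.6% in the rechallenged library, and neutrophil progenitor-like cells gave 20.5%, 49.3% and 49.8% of Tlr4 UMIs.

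The other genes of the pathway were followed in 7 lists with 79 genes, all in the tables. Of the 9 other Toll-like receptors none had 100 UMIs over any pair in HSPC-like, neutrophil progenitor-like or monocyte-like cells. Tlr13, an endosomal receptor for bacterial ribosomal RNA, was the only one measured in mature neutrophil-like cells, where it rose to 64.7 CPM in the challenged once and 74.7 CPM in the rechallenged library, against 27.9 CPM in the unchallenged library. Tlr1, the other partner of TLR2, gave 0.569, 6.93 and 7.14 CPM there, with fewer than 100 UMIs over each pair of libraries. That class was of different make-up in each library, and the part of this in the Tlr13 and Tlr1 levels was not tested.

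Of the 9 accessory and chaperone genes, 7 were measured in rechallenged over unchallenged HSPC-like cells and 3 fell while none rose, where 9.5% of all measured genes were called. The list had a median log2 ratio of -0.45, against -0.12 for all measured genes. Ly86, which encodes the MD-1 partner of the TLR4 relative RP105, was at 7.77 CPM in rechallenged against 36.9 CPM in unchallenged HSPC-like cells, a log2 ratio of -1.40. Unc93b1, which carries endosomal Toll-like receptors to their compartment, had a log2 ratio of -0.73, and Cnpy3, a chaperone of Toll-like receptors, of -0.70. The make-up of the HSPC-like class differed between libraries: cluster 6 held 308, 702 and 396 and cluster 7 held 415, 536 and 356 cells. Irf8, a marker of the monocyte-like class, stood at 212, 121 and 67.4 CPM in cluster 6. The part of make-up in the falls of Ly86, Unc93b1 and Cnpy3 was not tested. In challenged once over unchallenged HSPC-like cells 8 were measured and Itgb2, an integrin chain, alone fell, at -0.69, beside 2.07% of all genes called. Hsp90b1, the endoplasmic reticulum chaperone that works with Cnpy3, rose in neutrophil progenitor-like cells by a log2 ratio of 0.92 in challenged once and 1.07 in rechallenged over unchallenged cells, where Cnpy3 fell by 0.67 in the second comparison. Of 7 measured, 1 rose and 1 fell in each, beside 4.03% and 6.84% of all genes called. Cluster 4, whose top genes include Sdf2l1, Calr and Hspa5, held 194, 847 and 701 cells of that class. Cluster 2 held 447, 495 and 1158. The part of this make-up in the Hsp90b1 rise was not tested. In mature neutrophil-like cells Lbp, the serum protein that binds endotoxin first, alone fell of 5 measured, at -0.65 in challenged once and -1.24 in rechallenged over unchallenged cells, where 19.4% and 30.5% of all measured genes were called.

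Among 20 adaptors and kinases, 16 were measured in challenged once over unchallenged HSPC-like cells and none was called, beside 2.07% of all measured genes. In rechallenged over unchallenged cells 1 of 15 was called, beside 9.5% of all measured genes, so both counts lay near the background. That gene was Ube2n, a ubiquitin-conjugating enzyme that acts with TRAF6, at 73.7 CPM in rechallenged against 162 CPM in unchallenged cells and a log2 ratio of -1.04. Ube2n was also the 1 gene of the list called in neutrophil progenitor-like cells of that comparison, at -0.62 with 16 measured beside 6.84% of all genes called, and in monocyte-like cells, at -0.81 with 17 measured beside 7.97%. Irak1 and Irak4, the kinases that IRAK-M restrains, had log2 ratios of 0.23 and -0.20 in rechallenged over unchallenged HSPC-like cells, short of the rule, and a median of 0.22 held for the list against -0.12 for all measured genes.

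Negative regulators moved in different directions by class. Nfkbia, the inhibitor of NF-kB, was at 46.7 CPM in rechallenged against 105 CPM in unchallenged HSPC-like cells, a log2 ratio of -1.02, and Tnip3 had -0.80, so that 2 of 9 measured genes fell and none rose, where 9.5% of all measured genes were called. In challenged once over unchallenged HSPC-like cells Dusp1, a phosphatase of MAP kinases, alone fell of 10 measured, at -0.61, beside 2.07% of all genes called. Nfkbia also fell in neutrophil progenitor-like cells, by 0.73 in challenged once and 1.14 in rechallenged over unchallenged cells, and in monocyte-like cells by 0.63 and 1.22. In challenged once over unchallenged mature neutrophil-like cells, a class of different make-up in each library, only 3 of the 12 genes had enough UMIs. These were higher, where 19.4% of all measured genes were called: Dusp1 at 2.84, Nfkbia at 0.74 and Nfkbiz at 0.67. In rechallenged over unchallenged cells of that class Dusp1 and Nfkbiz rose at 2.91 and 1.32, while Nfkbia had a log2 ratio of -0.34. Among the 9 transcription factors Irf7 alone was called in HSPC-like cells, at -1.60 in rechallenged over unchallenged and -1.99 in rechallenged over challenged once cells, with 8 and 9 measured, beside 9.5% and 11.6% of all genes called. In mature neutrophil-like cells Irf7 had 1.53 in challenged once and -0.74 in rechallenged over unchallenged cells. Of the 7 cytosolic sensing and clearance genes, Gsdmd, the pore-forming protein of pyroptosis, alone was called in HSPC-like cells, at -0.86 in rechallenged over unchallenged cells with 5 measured, beside the same 9.5%.

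The endotoxin target genes included some of the widest differences. Saa3, an acute phase gene, rose in challenged once over unchallenged neutrophil progenitor-like cells to 101 CPM, against 1.05 CPM, and in monocyte-like cells to 55.5 CPM, against 1.75 CPM. The chemokine genes Ccl3 and Ccl4 fell in challenged once over unchallenged HSPC-like cells, with log2 ratios of -0.90 and -0.94, and rose in rechallenged over unchallenged cells, with 0.91 and 0.99. In rechallenged over unchallenged monocyte-like cells only 3 of the 13 genes had enough UMIs. These were Ccl3, Saa3 and Ccl4, at 2.04, 1.87 and 1.49, where 7.97% of all measured genes were called. A gene as scarce without challenge as Saa3, at 1.75 CPM, reaches 100 UMIs over the pair only if it rises. The count is therefore not read as a result about the list. In mature neutrophil-like cells Cxcl2 stood at 1037 CPM in the challenged once library, against 34.1 CPM in the unchallenged library. Cxcl2 and Il1b lead cluster 15 and Il1b is a marker used to name the class, so these values restate the make-up of the class.

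By the correlation of log2(CPM + 10) over 38 groups of class by library, each of at least 50 cells, the members' levels ran along with the genes given here. The groups share 3 libraries, so these are descriptions. Tlr2 was most like 1600010M07Rik (r = 0.938), Tlr13 (0.933) and Ccl6 (0.924) among 8761 genes, Cd14 most like Gm5150 (0.951), Pla2g7 (0.945) and Cd300ld (0.936), and Tlr6 most like Gm5150 (0.919) and Sirpb1c (0.898). Tlr4 was most like Snx13 (0.820), Entpd1 (0.816) and Fcgr4 (0.769), and Ly96 most like Tlr2 (0.809), Trim30d (0.802) and Birc3 (0.782). Myd88 was most like Vamp3 (0.835), Atg3 (0.828) and Ptpn1 (0.793), Irak3 most like Cd63 (0.848), Ldhc (0.843) and Hdc (0.840), and Ticam1, with the lowest values, most like Rtl8a (0.626), Gcsam (0.602) and Tmub1 (0.582). Between members, Tlr6 and Cd14 had r = 0.890 and Tlr2 and Tlr6 0.833, whereas Myd88 and Irak3 had 0.0838.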

How the data were processed

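Per the labels' protocols, the libraries were made with the 10x Genomics 3′ kit, version 2. The deposited tables were checked to hold whole UMI counts by gene and barcode, no barcode having fewer than 500, and per the submitters' processing notes the authors used Cell Ranger 3.0.0 and the build mm10. The gene annotation they counted against and the way UMIs were filtered are not given in the sources used here.

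The cell filter required 500 UMIs and 300 genes and allowed 10% mitochondrial UMIs. Scrublet, through scanpy 1.11.5 with 6% doublets expected, was run on each library, and its calls were removed, 427 in the unchallenged, 294 in the challenged once and 256 in the rechallenged library. The 3 libraries were clustered together, without correction between them, on 2000 variable genes, 30 principal components, 15 neighbours and leidenalg 0.10.2 at resolution 1. The members, the pathway genes and response, cycle, ribosomal, mitochondrial and sex-linked genes were left out of the clustering. Clusters of at least 20 cells took a name from lists of markers when at least 3 markers were at least 2-fold over other cells and no other class led the top 10 genes. The scoring rule, the genes left out and the motifs were set after the files were seen. The HSPC-like cells were clustered again once, but 12 of 14 resulting clusters drew over 90% of their cells from 1 library and were not used.

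The members, lists and tests were chosen with earlier results of these data known. All 8 members are named whatever their values. From each of 7 pathway lists up to 3 called genes with the largest log2 ratio per class and comparison qualify, and for each member the 3 genes with the highest correlation. A gene among these is not reported here. The steps that sum counts and form ratios were tested on simulated data. Other tools were numpy 2.4.6, scipy 1.17.1, pandas 2.3.3, scikit-learn 1.9.0, anndata 0.12.19 and matplotlib 3.10.9. Intervals on shares of cells are Clopper-Pearson, and thinning to 2000 UMIs left out 17, 147 and 257 mature neutrophil-like cells in the libraries with 0, 1 and 2 challenges. The alternatives were another cell filter, no filter, doublets kept, resolution 2, all variable genes, median-of-ratios scaling, 1 CPM added, at least 20 UMIs and shared clusters only. Equal weight for every cell was added after the data were seen.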

Additional observations from a re-analysis of the deposited data

Results flagged for a closer look

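The members below stood out because the counting interval of a fold lay above 1 in one class and below 1 in another under the same comparison. With 1 library per group these differences between classes were not tested. In rechallenged over challenged once cells, Cd14 was at 1.52-fold (1.17 to 1.97) in neutrophil progenitor-like cells and at 1.94-fold (1.49 to 2.54) in monocyte-like cells, against 0.687-fold (0.567 to 0.833) in mature neutrophil-like cells. In rechallenged over unchallenged cells, Ly96 was at 3.07-fold (1.87 to 5.23) in mature neutrophil-like cells, against 0.655-fold (0.449 to 0.947) in HSPC-like cells. In rechallenged over challenged once cells, Irak3 was at 1.22-fold (1.08 to 1.38) in neutrophil progenitor-like cells, against 0.518-fold (0.296 to 0.902) in mature neutrophil-like cells. Within cluster 14 of the mature neutrophil-like class the interval included 1 in each case, at 1.17-fold (0.633 to 2.26) for Cd14, 1.51-fold (0.792 to 2.89) for Ly96 and 0.554-fold (0.257 to 1.20) for Irak3 in the same comparisons.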

How the results depend on the processing

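With 1 library per group every difference may be one between mice or library preparations as much as between treatments, and few UMIs per member limit what can be detected. No paired analysis was possible because each group holds 1 library. Of 120 counts of members past 1.5-fold under an alternative, 105 stayed within 1.5 times the main count and 15 did not. With 1 CPM added, 1 member each was called in 7 comparisons that had none: Myd88 higher in challenged once over unchallenged and lower in rechallenged over challenged once HSPC-like and neutrophil progenitor-like cells, and Cd14 higher in rechallenged over unchallenged neutrophil progenitor-like and monocyte-like cells and in rechallenged over challenged once monocyte-like cells. With at least 20 UMIs, 6 members were higher in mature neutrophil-like cells of either challenged library over unchallenged cells, and 1, Irak3, was lower in rechallenged over challenged once cells. Without a cell filter 1 member, Cd14, was called in each of those first comparisons, where the class held 3 unchallenged cells, and the Myd88 fold was 0.360 in challenged once and 0.343 in rechallenged over unchallenged cells. With shared clusters only, 0 members were measured or called there, the Myd88 fold was 0.982 in rechallenged over unchallenged cells, and the Cd14 folds were 2.61 and 3.05. With every cell weighted equally, 1 member, Cd14, was lower in rechallenged over challenged once mature neutrophil-like cells. Of 576 levels under the other settings 516 moved by less than their counting interval and 60 by more, and of 48 shares of cells 32 moved by more when cells were not thinned.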

Other observations

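Macrophage-like cells, a small class of 139, 123 and 74 cells in the unchallenged, challenged once and rechallenged libraries, also carried the endotoxin receptor genes. Cd14 stood there at 4.98 CPM (1.03 to 14.6), 14.3 CPM (4.63 to 33.3) and 62.0 CPM (36.1 to 99.2), from 3, 5 and 17 UMIs, so the rechallenged level lay above the other two. Ly96 was at 18.3, 25.7 and 43.8 CPM and Tlr4 at 11.6, 11.4 and 21.9 CPM in the same order, with overlapping intervals for each gene. Most of these cells were shallow, with medians of 1100, 934 and 2068.5 UMIs. In the lymphoid class of T, NK and innate cells, 64, 103 and 366 in number, Cd14 gave 0, 0 and 1 UMIs and Tlr2 gave 0, 0 and 5.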
